A study of Homo sapiens with 18 samples.

Results

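Ribosome biogenesis and RNA polymerase I genes were examined in K562 cells after knockdown of a circular RNA. The set holds 47 genes, chosen by symbol as nucleolar ribosome assembly factors and RNA polymerase I genes, out of 27781 genes in the deposited count table. All 47 were present, and all 47 passed the filter on low counts. K562 is an established BCR-ABL1-positive human leukemia line, which the labels call lymphoblast cells. The knockdown group was transfected with antisense gapmers directed at the junction that closes circPCMTD1, a circle made from PCMTD1 exons, and the scrambled group with scrambled gapmers. The sample descriptions call the same agents siRNA. Both groups were harvested at 48 hours and sequenced as total RNA after ribosomal RNA depletion. There were 18 libraries, from 3 biological replicates per group, and the 3 technical libraries of a replicate were summed, which gave 3 samples against 3. Gapmers are short antisense oligonucleotides that direct RNase H to the RNA they pair with.

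Ribosomes are built in the nucleolus. RNA polymerase I transcribes the long precursor of the 18S, 5.8S and 28S ribosomal RNAs, and small nucleolar ribonucleoproteins (snoRNPs) guide its methylation and pseudouridylation. Assembly factors then fold, cut and export the precursors of the small (40S) and large (60S) subunits. Many of these genes are textbook targets of the transcription factor MYC and are strongly expressed in growing leukemia cells. The counts analysed here are messenger RNA levels, and with ribosomal RNA depleted they do not measure ribosomal RNA output.

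Library totals ran from 19118533 to 29432699 counts. PCMTD1, whose gene-level count mixes linear and circular RNA, had 12.6, 11.7 and 12.5 CPM (counts scaled to library size) in knockdown samples and 20.0, 19.8 and 21.9 CPM in scrambled samples. Its log2 fold change was -0.74 (SE 0.052, edgeR adjusted p = 7.57e-10), and a two-sided exact permutation test gave p = 0.1, the smallest that 3 against 3 samples allow. The 8 erythroid markers summed to 6382 to 6671 CPM in knockdown samples and 6124 to 6209 CPM in scrambled samples, with 2 called higher and 2 lower. Of the 5 B cell markers only MS4A1 was at 0 throughout, and none exceeded 0.828 CPM in a summed sample. T cell markers, mostly CD3D, summed to 6.78 to 7.05 CPM in knockdown and 4.73 to 5.26 CPM in scrambled samples. Monocyte markers, mostly LYZ, summed to 46.2 to 47.2 and 36.5 to 38.3 CPM, and the fibroblast and epithelial list, led by KRT8, to 697 to 745 and 676 to 695 CPM. One gene passed as higher in each of the T cell and monocyte lists, and in the fibroblast and epithelial list 2 were higher and 1 lower. The part of these markers in the results below was not tested. Technical libraries 2 and 3 of knockdown replicate 3 (3_2 and 3_3) deviated most with transcript GC content, so results are also given without them where they move. The series calls the replicates biological without saying whether they came from separate cultures, so p-values measure the spread between these samples, which may be technical.

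The set held genes that were lower in knockdown cells and none called higher. By edgeR's quasi-likelihood test with Benjamini-Hochberg adjustment, 13 of the 47 were lower and 0 higher (adjusted p under 0.05). Among all 15678 genes tested, 7.49% were called lower and 11.1% higher. The fitted log2 fold change was negative for 44 of the 47, and the median was -0.07, beside 0.00 over all genes tested, of which 49.2% were negative. At an unadjusted p below 0.05, 25 members were lower and 0 higher, beside 14.2% and 17.0% of all genes tested. DESeq2 called 16 lower and 0 higher, beside 7.89% and 9.33%. Single replicates moved the count: 4 members were lower without scrambled replicate 2, beside 3.92% of all genes tested, 8 without scrambled replicate 1, beside 3.95%, and 27 without knockdown replicate 3, beside 14.3%. In each of these fits 0 members were higher, beside 7.49%, 7.09% and 15.6% of all genes tested. The changes were small: called members had a median fold change equal to a 7.7% lower level, and the set ran from -0.16 for NOP16 to 0.03 for NHP2 on the log2 scale. Gene-level counts cannot tell less RNA per cell from fewer cells that express a gene.

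**Figure D1:**
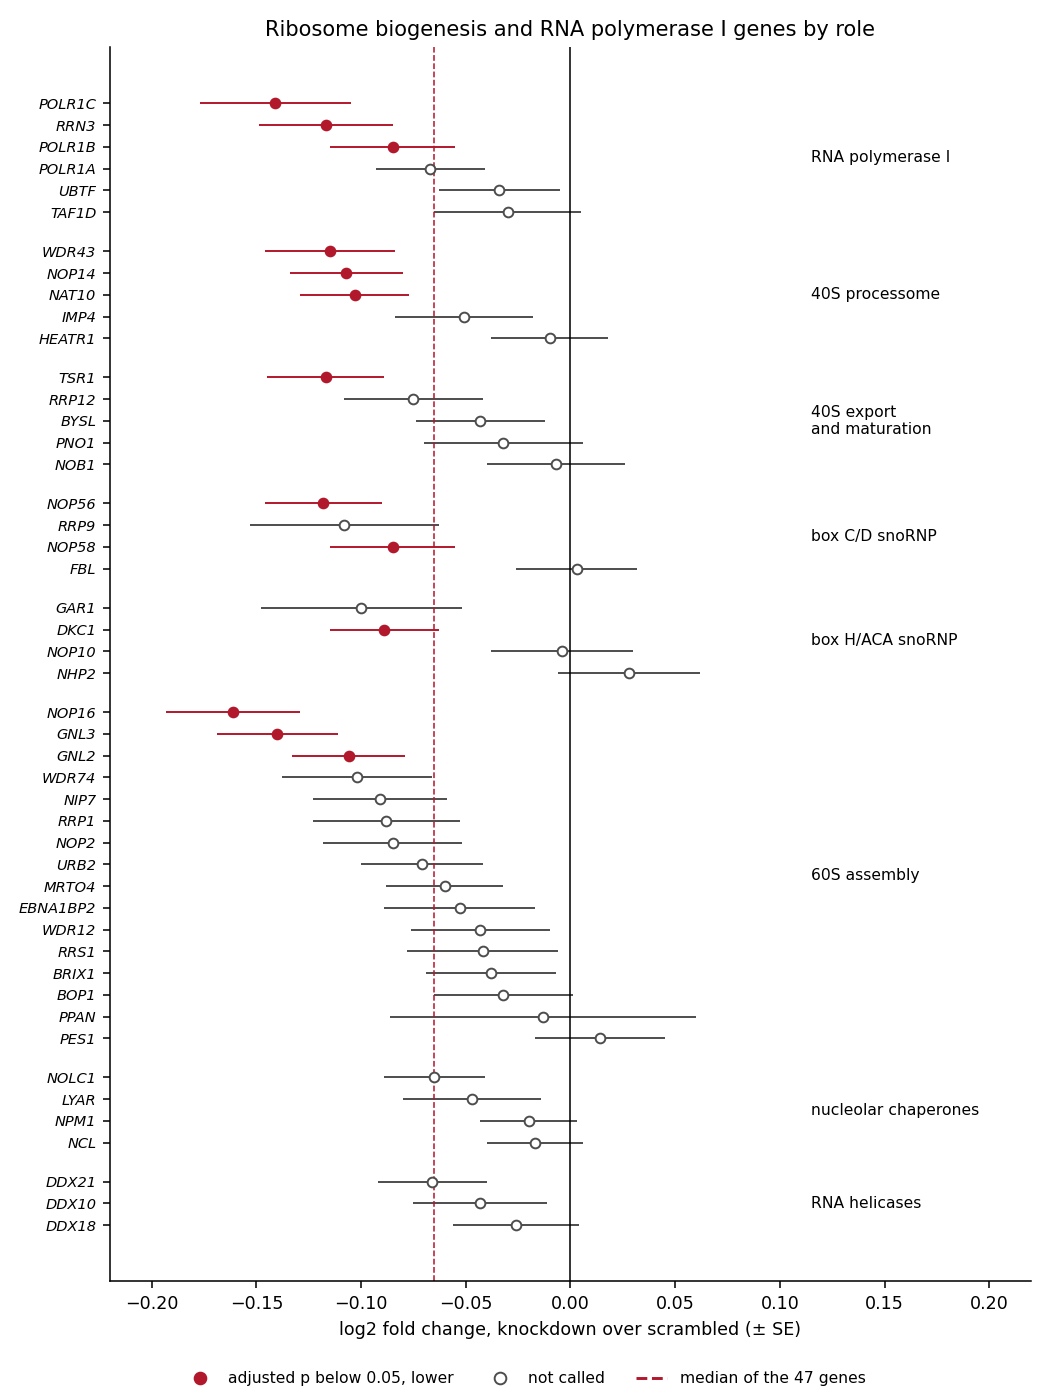
Log2 fold change of each of the 47 genes, knockdown over scrambled, with its SE (3 summed samples per group), grouped by role. Filled points are the 13 genes called lower at an adjusted p below 0.05, and 44 of the 47 points lie left of 0.

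**Figure D2:**
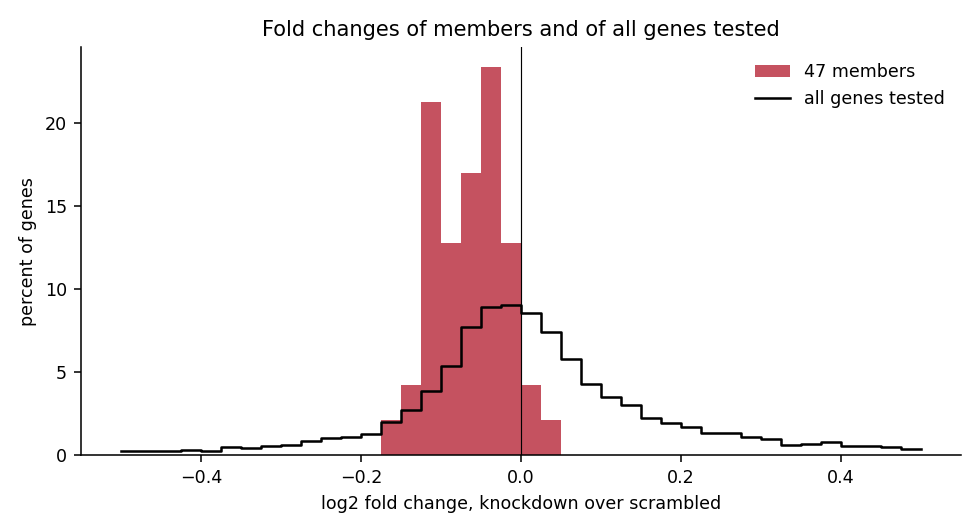
Percent of genes in bins of log2 fold change (knockdown over scrambled) for the 47 members (bars) and for all 15678 genes tested (line). The axis covers -0.5 to 0.5, which holds 94.8% of all genes tested, and the members' median lies at -0.07.

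The lower level showed in every knockdown sample. Summed over the 47 genes, knockdown samples held 8760, 8713 and 8817 CPM, and scrambled samples 9097, 9076 and 9097 CPM. The sums averaged 8763 ± 52.2 CPM in knockdown and 9090 ± 12.0 CPM in scrambled samples (SD, n = 3 each), and the groups did not overlap. Relative to the scrambled mean, the members' median log2 deviation was -0.056, -0.070 and -0.073 in the 3 knockdown samples and between -0.004 and 0.006 in the scrambled samples. In single libraries it ran from -0.083 to -0.051 over 9 knockdown libraries and from -0.010 to 0.012 over 9 scrambled libraries, so the technical libraries did not overlap either. For 23 members all 3 knockdown values lay below all 3 scrambled values, and for 0 members above, where 16.5% and 18.1% of all genes tested did so.

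**Figure D3:**
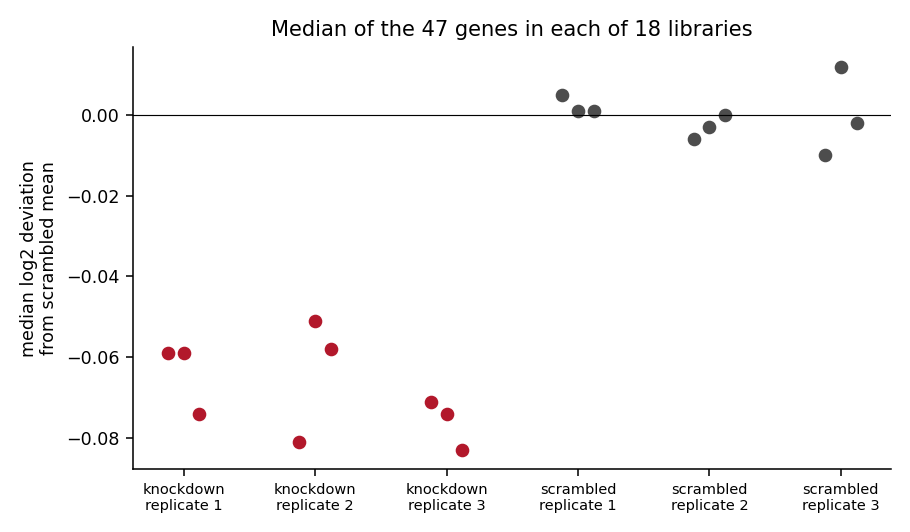
Median over the 47 genes of the log2 CPM deviation from the scrambled mean, for each of 18 libraries, grouped by biological replicate. The 9 knockdown libraries lie between -0.083 and -0.051 and the 9 scrambled libraries between -0.010 and 0.012.

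Promoters were searched for the canonical E-box, the letters CACGTG bound by MYC with MAX, and for an ETS core, CCGGAAG. RefSeq promoters of GRCh38.p14 (250 bases before to 50 after the first listed start) were matched for 40 of the 47 members, and both strands were searched. The E-box was in 14 of 40 members (35.0%) and in 9.92% of promoters of all genes tested, and in 4 of 12 called and 10 of 28 uncalled members. In 13 of the 14 a match lay within 50 bases of the start. The ETS core was also in 14 of 40 (35.0%), beside 18.6% of promoters of genes tested, and in 5 of 12 called and 9 of 28 uncalled members. A match is a description of these letters and not a binding site. The stretches before the start are shown for the 5 called members that hold a match there and for NOP10, which was not called and holds an E-box 170 and another 11 bases before its start. Capitals mark the matches, which overlap on opposite strands in NOP16 and POLR1C, and each is written 5′ to 3′ on the gene's strand.
NOP16, chr5:176388599-176388748, minus strand: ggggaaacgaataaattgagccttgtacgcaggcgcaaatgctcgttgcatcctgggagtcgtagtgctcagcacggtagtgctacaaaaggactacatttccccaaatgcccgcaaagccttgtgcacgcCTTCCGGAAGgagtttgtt
TSR1, chr17:2336458-2336607, minus strand: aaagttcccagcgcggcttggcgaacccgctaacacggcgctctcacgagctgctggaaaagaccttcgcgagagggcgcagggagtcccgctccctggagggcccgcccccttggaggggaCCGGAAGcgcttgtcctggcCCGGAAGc
NAT10, chr11:34105479-34105628, plus strand: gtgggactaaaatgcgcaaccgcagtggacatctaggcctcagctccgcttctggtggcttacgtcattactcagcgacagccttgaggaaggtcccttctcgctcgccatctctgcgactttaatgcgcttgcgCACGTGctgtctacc
POLR1C, chr6:43516849-43516998, plus strand: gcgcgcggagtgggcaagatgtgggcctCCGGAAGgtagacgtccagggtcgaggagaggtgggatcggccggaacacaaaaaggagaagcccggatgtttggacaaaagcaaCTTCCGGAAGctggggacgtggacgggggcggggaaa
POLR1B, chr2:112541838-112541987, plus strand: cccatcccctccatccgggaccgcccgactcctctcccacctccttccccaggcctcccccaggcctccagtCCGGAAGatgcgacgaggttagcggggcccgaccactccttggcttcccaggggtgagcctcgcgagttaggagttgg
NOP10, chr15:34343137-34343386, minus strand: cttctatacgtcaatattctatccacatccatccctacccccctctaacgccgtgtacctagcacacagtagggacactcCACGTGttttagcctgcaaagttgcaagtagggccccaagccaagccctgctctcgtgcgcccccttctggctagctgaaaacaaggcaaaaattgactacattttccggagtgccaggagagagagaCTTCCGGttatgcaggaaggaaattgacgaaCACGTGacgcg
The NAT10 E-box begins 15 bases before its start. NAT10 is described among the processome genes (-0.10, called lower) and NOP10 among the box H/ACA genes (-0.004, not called).

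RNA polymerase I genes had 3 of 6 members called lower, and all 6 had negative log2 fold changes. Among all genes tested 7.49% were called lower and 49.2% had negative log2 fold changes. POLR1C, a subunit shared by RNA polymerases I and III (chr6:43509702-43562419, GRCh38), had 70.2, 68.0 and 64.2 CPM in knockdown samples and 75.0, 76.1 and 72.1 CPM in scrambled samples. Its log2 fold change was -0.14 (SE 0.036, edgeR adjusted p = 0.00785). RRN3, the initiation factor that links the polymerase to the promoter complex (chr16:15060022-15094317), had 56.8, 56.5 and 57.7 CPM in knockdown samples and 61.1, 63.1 and 61.2 CPM in scrambled samples. The groups did not overlap for either gene, and RRN3 had a log2 fold change of -0.12 (SE 0.032, edgeR adjusted p = 0.0137). RRN3 has 3 annotated pseudogene copies by name, which can share its reads. POLR1B, the second largest subunit (chr2:112541915-112577150), had 101, 100.4 and 104 CPM in knockdown samples and 108 CPM in each scrambled sample, with a log2 fold change of -0.09 (SE 0.030, edgeR adjusted p = 0.0492).

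The other members of this group did not pass in the fit to all libraries. POLR1A, the largest and catalytic subunit, had 321, 312 and 306 CPM in knockdown samples and 334, 325 and 324 CPM in scrambled samples, without overlap (log2 fold change -0.07, edgeR adjusted p = 0.077). It was called lower in 6 of 14 alternative settings, with GC correction (0.000751) and without libraries 3_2 and 3_3 (0.00267) among them, over an edgeR and DESeq2 range of 0.000751 to 0.378. UBTF, the factor that coats active ribosomal DNA, had 167, 164 and 158 CPM in knockdown samples and 170.0, 165 and 165 CPM in scrambled samples, and the ranges overlapped (-0.03, edgeR adjusted p = 0.463). TAF1D, a subunit of the selectivity factor SL1, had 67.2, 69.3 and 73.0 CPM against 70.5, 70.1 and 73.2 CPM, also with overlap (-0.03, edgeR adjusted p = 0.612). TAF1D was called lower in 2 settings, one of them GC correction (edgeR adjusted p = 0.0317, range 0.0317 to 0.976), and UBTF in 0. TAF1D holds 8 annotated snoRNA genes, most of them overlapping its annotated exons, so its count can include reads from those. Across 14 alternative settings in edgeR and DESeq2 the adjusted p of POLR1C ran from 3.06e-05 to 0.183. It missed the threshold with the first technical library alone (0.183) and without scrambled replicate 2 (0.0679). That of RRN3 ran from 3.2e-05 to 0.11 over the edgeR and DESeq2 settings, missing without scrambled replicate 2 (0.11) and without knockdown replicate 2 (0.0581). POLR1B passed in 7 of the 14 settings (adjusted p from 0.000136 to 0.244 in edgeR and DESeq2). It missed without a count filter (0.0533), with the first technical library alone (0.244), without knockdown replicate 1 (0.127) or 2 (0.17), and without scrambled replicate 1 (0.14), 2 (0.188) or 3 (0.132).

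Of 16 further RNA polymerase I subunits and initiation or termination factors, 1 was lower and 2 higher, beside 7.49% and 11.1% of all genes tested, with a median log2 fold change of 0.02. POLR1E, a subunit of the polymerase, had 104, 106 and 107 CPM in knockdown samples and 92.9, 94.2 and 89.6 CPM in scrambled samples, and rose by 0.20 on the log2 scale (SE 0.031, edgeR adjusted p = 9.23e-05). CAVIN1, first described as a polymerase I transcript release factor and best known as a coat protein of caveolae, rose by 0.25 (SE 0.029, edgeR adjusted p = 2.13e-06). POLR2H, a subunit shared by the nuclear polymerases, was the lower one at -0.11. Of 21 RNA polymerase III genes 0 were lower in edgeR and 1 was higher, GTF3C1 (0.12), a DNA-binding subunit of factor TFIIIC, while DESeq2 called 1 lower and 1 higher.

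The small-subunit processome, which assembles on the 5′ part of the precursor, had 3 of 5 members called lower, beside 7.49% of all genes tested. WDR43, a homologue of yeast Utp5 (chr2:28894643-28948222), had 151, 157 and 165 CPM in knockdown samples and 168, 171 and 173 CPM in scrambled samples (log2 fold change -0.12, SE 0.031, edgeR adjusted p = 0.0116). NOP14, a processome core factor (chr4:2937933-2963385), had 156, 155 and 153 CPM in knockdown samples and 166, 167 and 167 CPM in scrambled samples (-0.11, SE 0.027, edgeR adjusted p = 0.00724). NAT10, which acetylates cytidines of 18S ribosomal RNA (chr11:34105602-34147670), had 237, 239 and 231 CPM in knockdown samples and 252, 255 and 251 CPM in scrambled samples (-0.10, SE 0.026, edgeR adjusted p = 0.00724). No knockdown sample reached the scrambled range for these genes, and for NOP14 and NAT10 all 9 knockdown libraries also lay below all 9 scrambled libraries. These are technical libraries and add no replicates, and the share of all genes with libraries apart in this way was not computed. IMP4, of the U3-associated Mpp10 complex, was at -0.05 without passing. HEATR1, homologous to yeast Utp10, was at -0.01 and had 422, 427 and 457 CPM in knockdown samples, on both sides of the 438 to 439 CPM in scrambled samples. IMP4 was called lower with GC correction and HEATR1 without libraries 3_2 and 3_3.

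Over 14 settings in edgeR and DESeq2, the adjusted p of NOP14 ran from 1.55e-06 to 0.0564 and that of NAT10 from 4.63e-07 to 0.0667, and both missed the threshold only without scrambled replicate 2. WDR43 ran from 3.85e-09 to 0.0759 in edgeR and DESeq2, missing without knockdown replicate 1 (0.0759) and without scrambled replicate 2 (0.0616) or 3 (0.0745). Of the 5 genes for 40S export and late maturation, 1 was called lower, beside 7.49% of all genes tested. TSR1, a late pre-40S factor related to translational GTPases (chr17:2322503-2337507), had 166, 163 and 169 CPM in knockdown samples and 180.2, 183 and 177 CPM in scrambled samples. Its log2 fold change was -0.12 (SE 0.028, edgeR adjusted p = 0.00447, range 1.97e-09 to 0.0546, the highest without scrambled replicate 2). The 9 technical knockdown libraries of TSR1 lay below the 9 scrambled ones, which adds no replicates, and the share of all genes was not computed. RRP12, an export factor, was at -0.07, BYSL at -0.04, PNO1 at -0.03 and NOB1, the nuclease that forms the 3′ end of 18S RNA, at -0.01, and none of these passed in the fit to all libraries. RRP12 and BYSL were called lower with GC correction, and 0 of the 4 without libraries 3_2 and 3_3, beside 17.0% and 15.5% of all genes tested.

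Over all genes tested, edgeR called 7.49% lower and 11.1% higher, and DESeq2 7.89% and 9.33%. Of 46 further processome and pre-40S genes, 6 were lower and 0 higher in edgeR and in DESeq2, with a median log2 fold change of -0.03. UTP25 was the lowest of those passing at -0.15 (50.4 ± 1.58 CPM in knockdown and 56.0 ± 1.03 CPM in scrambled samples, SD, n = 3 each, edgeR adjusted p = 0.00334). UTP4, of the same UtpA subcomplex as WDR43 and HEATR1, was at -0.11 (183 ± 3.58 and 199 ± 1.83 CPM, edgeR adjusted p = 0.00453). The list was not tested against the 47 members.

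Both classes of modification snoRNP had members called lower and core subunits that did not pass. Box C/D particles carry out 2′-O-methylation. NOP56, one of their core proteins (chr20:2652145-2658393), had 217, 208 and 209 CPM in knockdown samples and 235, 228 and 225 CPM in scrambled samples (log2 fold change -0.12, SE 0.028, edgeR adjusted p = 0.00465). Its paralog and partner NOP58 had 137, 139 and 146 CPM in knockdown samples and 150.4, 148 and 149 CPM in scrambled samples (-0.09, SE 0.030, edgeR adjusted p = 0.0495). Neither gene's groups overlapped. FBL, fibrillarin, the methyltransferase of the same particle, had 277, 275 and 258 CPM in knockdown samples and 274, 272 and 262 CPM in scrambled samples, and did not pass (0.00, edgeR adjusted p = 0.955). RRP9, which binds U3 snoRNA, was at -0.11 with an SE of 0.045, and did not pass (edgeR adjusted p = 0.0977). It was called lower with GC correction (edgeR adjusted p = 9.22e-05, range over 14 settings 9.22e-05 to 0.497), while FBL was called in 0 settings. NOP56 missed the threshold in 1 of 14 settings, without scrambled replicate 1 (0.0578, range 3.67e-08 to 0.0578 in edgeR and DESeq2). NOP58 missed without scrambled replicate 1 (0.178), 2 (0.125) or 3 (0.142) and without knockdown replicate 1 (0.18) or 2 (0.165), over an edgeR and DESeq2 range of 1.91e-06 to 0.18.

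Box H/ACA particles make pseudouridine. DKC1, dyskerin, their catalytic subunit (chrX:154762742-154777689), had 227, 225 and 231 CPM in knockdown samples and 243, 239 and 244 CPM in scrambled samples. It fell by 0.09 on the log2 scale (SE 0.026, edgeR adjusted p = 0.0182), and its 9 knockdown libraries (222 to 233 CPM) lay below the 9 scrambled libraries (236 to 246 CPM). As technical libraries they add no replicates, and how many of all genes were apart in this way was not computed. The 3 other core subunits did not pass, with GAR1 at -0.10 (SE 0.048), NOP10 at -0.004 and NHP2 at 0.03. GAR1 was called lower in 3 of 14 settings, without libraries 3_2 and 3_3 among them, and NOP10 and NHP2 in 0. NHP2 had 78.2, 75.3 and 72.9 CPM in knockdown samples and 75.8, 72.7 and 73.6 CPM in scrambled samples, which overlapped. DKC1 missed the threshold without scrambled replicate 1 (0.0903), 2 (0.0597) or 3 (0.0979) and without knockdown replicate 2 (0.0832), with a range of 1.05e-06 to 0.0979 over 14 settings in edgeR and DESeq2. In edgeR 7.49% of all genes tested were lower and 11.1% higher, and in DESeq2 7.89% and 9.33%. Among 24 genes for snoRNP assembly and the nuclear exosome, 2 were lower, near these shares, and 0 higher in edgeR and in DESeq2. Both are subunits of the exosome, the complex that trims ribosomal RNA precursors, with EXOSC2 at -0.15 and EXOSC6 at -0.11.

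**Figure D4:**
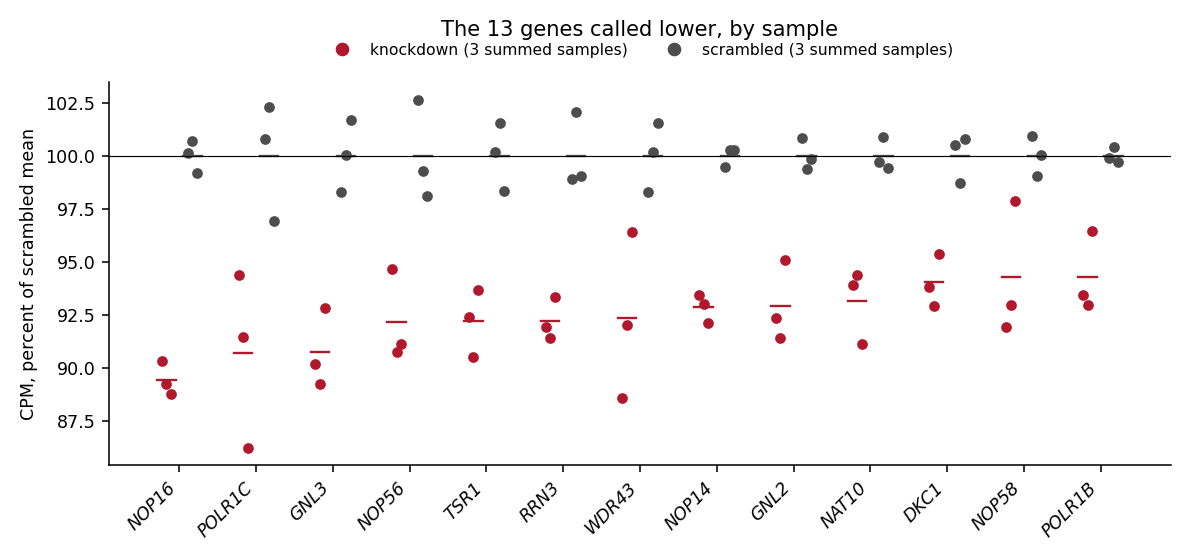
CPM of the 13 genes called lower, as percent of each gene's scrambled mean, in 3 knockdown samples (left of each pair) and 3 scrambled samples (right), with group means as bars. Knockdown values lie between 86.2% and 97.9% and scrambled values between 96.9% and 102.6%, and within each gene the groups do not overlap. The genes were called on these same values, so the separation is no separate evidence. Of all genes tested 16.5% had every knockdown sample below every scrambled sample.

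The 60S assembly genes formed the largest role group, with 3 of 16 called lower and 15 of 16 negative. Among all genes tested 7.49% were called lower and 49.2% were negative. NOP16, a nucleolar factor of the early 60S particle (chr5:176383938-176388975), had the largest change of the set, with 54.3, 53.6 and 53.3 CPM in knockdown samples and 60.2, 60.5 and 59.6 CPM in scrambled samples. It was 10.6% lower (log2 fold change -0.16, SE 0.032, edgeR adjusted p = 0.001). GNL3, the GTP-binding protein nucleostemin (chr3:52681156-52694492), had 137, 136 and 141 CPM in knockdown samples and 149.8, 152 and 155 CPM in scrambled samples (-0.14, SE 0.029, edgeR adjusted p = 0.00142). GNL2, a related nucleolar GTPase (chr1:37566816-37595935), had 176, 175 and 182 CPM in knockdown samples and 193, 189.8 and 191 CPM in scrambled samples (-0.11, SE 0.027, edgeR adjusted p = 0.00826). All 3 genes had groups apart from each other. GNL3 passed in all 14 alternative settings (adjusted p up to 0.0196 in edgeR, without scrambled replicate 3), and it was the only member to do so. NOP16 missed in 1 setting, with the first technical library alone (0.0808, lowest 1.07e-06 in edgeR and DESeq2). GNL2 missed without scrambled replicate 1 (0.0574) and without knockdown replicate 2 (0.0525), and its lowest value was 3.43e-09 in edgeR and DESeq2.

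The remaining 13 60S factors did not pass in the edgeR fit to all libraries, but 9 were called lower with GC correction and 7 without libraries 3_2 and 3_3. These 2 fits also called more genes lower in general, 17.0% and 15.5% of all genes tested. WDR74, which acts with the AAA ATPase NVL, was at -0.10 and NIP7 at -0.09, with edgeR adjusted p of 0.0515 and 0.051. WDR74 was called lower in 10 of 14 settings (adjusted p from 0.000103 to 0.256) and NIP7 in 7 (0.000246 to 0.26), and DESeq2 called both (0.0456 and 0.0436). NOP2 was called in 6 settings. The methyltransferase gene NOP2 and the nucleolar factor gene URB2 were at -0.08 and -0.07, RRP1 was at -0.09 and MRTO4, homologous to the ribosomal stalk protein P0, at -0.06. EBNA1BP2 was at -0.05 and BRIX1 at -0.04. Of the PeBoW complex, needed for 28S maturation, WDR12 was at -0.04, BOP1 at -0.03 and PES1 at 0.01. WDR12 was called lower with GC correction (edgeR adjusted p = 0.0415) and without libraries 3_2 and 3_3 (0.0152), with a range of 0.0152 to 0.834 over 14 settings, and PES1 in 0 settings. RRS1, which helps bring the 5S particle into the 60S precursor, was at -0.04, and PPAN, the least abundant member, was at -0.01 with an SE of 0.073. PPAN shares 1447 exonic bases with the read-through gene PPAN-P2RY11 and had 5.71 ± 0.291 CPM in knockdown and 5.78 ± 0.377 CPM in scrambled samples (SD, n = 3 each). Of 47 further pre-60S genes 5 were lower and 1 higher in edgeR and in DESeq2, with a median of -0.04. All genes tested gave 7.49% lower and 11.1% higher in edgeR, and 7.89% and 9.33% in DESeq2. MDN1, the very large AAA ATPase that remodels pre-60S particles, had 801, 797 and 803 CPM in knockdown samples and 887, 889 and 880.3 CPM in scrambled samples (-0.15, SE 0.022, edgeR adjusted p = 5.08e-05). DDX55, a DEAD-box helicase, was at -0.12, and the higher one was ZNF622 at 0.13, a late cytoplasmic 60S factor, named here because it was the only one.

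Nucleolar chaperones and the DEAD-box helicases of the set had 0 of 4 and 0 of 3 genes called, lower or higher, in the edgeR fit to all libraries. That fit called 7.49% of all genes tested lower and 11.1% higher. At an unadjusted p below 0.05 each group had 1 lower, NOLC1 and DDX21 (14.2% of all genes tested were lower at this level), and DESeq2 called NOLC1 alone. Without libraries 3_2 and 3_3, 3 of the 4 chaperones (NCL, NPM1 and NOLC1) and all 3 helicases were called lower, and GC correction called NPM1, NOLC1, DDX21 and DDX18. More genes were called in both fits, with 15.5% of all genes tested lower without these libraries and 17.0% with GC correction. NPM1, nucleophosmin, had 1615, 1613 and 1686 CPM in knockdown samples and 1641, 1656 and 1687 CPM in scrambled samples. It was at -0.02 (SE 0.023), and 45 annotated pseudogene copies by name can share its reads. NCL, nucleolin, had 635, 636 and 651 CPM in knockdown samples and 647, 642 and 657 CPM in scrambled samples, also at -0.02 (SE 0.023). LYAR, a nucleolar zinc finger protein, was at -0.05, and NOLC1, the snoRNP chaperone Nopp140, was at -0.07 with groups that did not overlap (edgeR adjusted p = 0.0658). DDX21, a helicase that binds ribosomal DNA and snoRNAs, had 688, 685 and 730.5 CPM in knockdown samples and 727, 734 and 741 CPM in scrambled samples (-0.07, edgeR adjusted p = 0.0769). Over 14 settings its adjusted p in edgeR and DESeq2 ran from 1.11e-10, without libraries 3_2 and 3_3, to 0.288, and it was called lower in 6. DDX10 was at -0.04 and DDX18 at -0.03. Per kilobase of annotated exon, NPM1 was the highest member at 428 CPM in knockdown and 434 CPM in scrambled samples, followed by DDX21 at 139.7 and 146 and FBL at 124 and 124, and PPAN was the lowest at 2.21 and 2.24.

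The number of calls moved with a GC correction and with removal of knockdown libraries 3_2 and 3_3. Across the 47 genes, the deviation of knockdown replicate 3 from the other knockdown replicates fell with transcript GC content (Spearman rho = -0.84, n = 47 genes, which share these libraries and are no replicates). In the 16 members of lowest GC content (37.9% to 45.9%) replicate 3 lay a median of 0.068 (log2) above the others, and in the 16 of highest GC content (55.2% to 65.3%) it lay at -0.078. Of the 13 calls, 5 were among the 16 of lowest GC content, 8 among the 15 between, and 0 among the 16 of highest. Shares of all genes tested in these GC ranges were not computed, so these counts cannot be said to be particular to the members. After a GC correction 32 members were lower and 0 higher (12, 11 and 9 in the same groups), beside backgrounds of 17.0% lower and 15.2% higher, and without libraries 3_2 and 3_3 there were 29 and 0 (13, 13 and 3), beside 15.5% and 16.5%. All 13 called members passed as lower in both of these fits, and the median log2 fold change was -0.06 in each. Among the members of highest GC content BOP1 differed between these fits, with -0.06 after GC correction (edgeR adjusted p = 0.00064) and 0.02 without the libraries (edgeR adjusted p = 0.371).

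**Figure D5:**
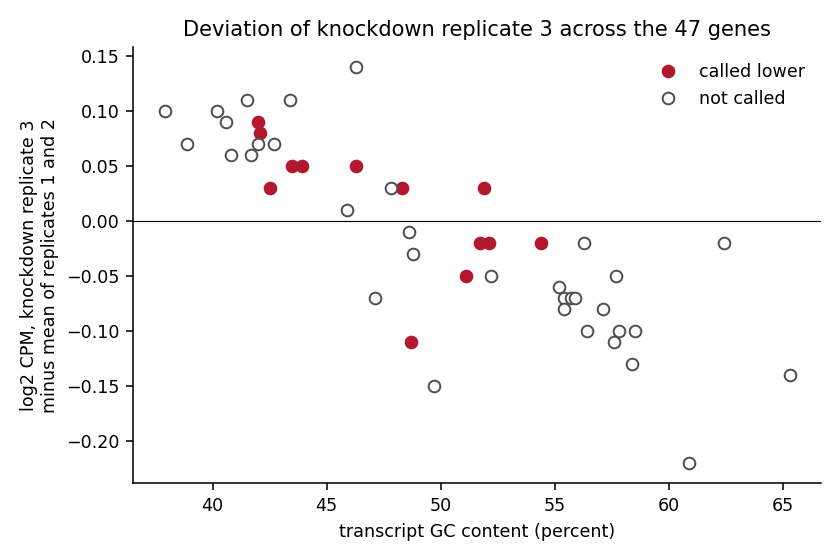
Each point is 1 of the 47 genes, with transcript GC content in percent on the x axis and, on the y axis, log2 CPM of knockdown replicate 3 minus the mean of knockdown replicates 1 and 2. Filled points are the 13 genes called lower, none of which lies at a GC content of 55.2% or above.

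The lists of further genes moved with the same settings. Over all genes tested 17.0% were lower and 15.2% higher with GC correction, and 15.5% and 16.5% without libraries 3_2 and 3_3. With GC correction 18 processome and 21 pre-60S genes were lower, with 0 and 1 higher, and without libraries 3_2 and 3_3 there were 17 and 19 lower, with 3 and 4 higher. The further RNA polymerase I genes had 3 lower and 2 higher, then 2 and 4, and the snoRNP assembly and exosome genes had 9 and 0, then 7 and 1. RNA polymerase III genes had 4 and 2, then 6 and 3.

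MYC itself did not pass. It had 288, 294 and 284 CPM in knockdown samples and 288, 282 and 288 CPM in scrambled samples (log2 fold change 0.01, SE 0.025, edgeR adjusted p = 0.787). Over all genes tested 7.49% were lower and 11.1% higher in edgeR, and 7.89% and 9.33% in DESeq2. Of 11 tested genes of the MYC network 2 were lower and 0 higher in edgeR and in DESeq2. These were MXD4, a MAX partner that opposes MYC, at -0.17 and MGA, another MAX partner, at -0.08.

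Several members also carry snoRNAs in their introns. By GENCODE release 29, 9 members hold 31 named snoRNA genes on their own strand. Of these 9, 6 were called lower (median log2 fold change -0.09), beside 7 of the other 38 (median -0.06) and 7.49% of all genes tested. The 9 hosts are GNL3, NOP56, NOP58, DKC1, NCL, PPAN, TAF1D, WDR43 and TSR1. POLR1C, called lower, holds a snoRNA gene with only a family identifier and is counted among the 38. Host genes outside the set were not counted, so the difference cannot be said to be particular to these members. Some of the snoRNAs overlap annotated exons of their host genes, and whether host counts include their reads was not tested. Exons of 21 members overlap a gene on the opposite strand, and 6 of these were called (median -0.05), beside 7 of the 26 without (median -0.07).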

How the data were processed

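Per the submitters' processing notes the reads went through Trim Galore, STAR and featureCounts with GRCh38, and no source used here gives their versions, the annotation or the strandedness option. The deposited file holds raw counts per gene symbol for 18 libraries, which per the labels are strand-specific and depleted of ribosomal RNA. No pair of columns was identical. Technical libraries were summed by the first number in the title, giving 3 against 3 samples. The sums entered edgeR 4.0.16 under R 4.3.3: genes were kept by filterByExpr, scaled by TMM, and fitted by robust quasi-likelihood, with p-values adjusted by Benjamini-Hochberg over 15678 genes. "Called" means an adjusted p below 0.05. SEs are the absolute log2 fold change divided by the root of the F statistic. CPM use TMM-scaled library sizes, and each SD covers 3 summed samples.

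The members and lists were chosen with earlier results of these data known. By rule, full values are given for the 3 called members of smallest p in each role and all RNA polymerase I members; other members are given by fold changes and counts, and a few that were not called also by their values, chosen after these were seen. Of each further list the 2 called genes of smallest p are named, and MYC always. Alternatives were DESeq2 1.42.0, RLE factors, no count filter, the replicate number as a block, each replicate left out, the first technical library alone, removal of knockdown libraries 3_2 and 3_3, and a lowess (span 0.3) correction on GC content, with and without the block. GC content (96.4% of tested genes), exon lengths and coordinates came from GENCODE 29, and promoters from RefSeq. On simulated counts for 15514 genes of this comparison, the procedure called 31.6% of genes at 0.909-fold and 59.0% at 0.833-fold, with 5 of 15318 unchanged genes called. The simulated counts held no deviation of libraries with GC content, which the data do, so these shares are not error rates for the data. One marker result is not reported here.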

Additional observations from a re-analysis of the deposited data

Results flagged for a closer look

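In 4 of 94 sets of 9 libraries (each member in each group) 1 library stood apart from the rest by Dixon's test at 95%. The sets share the same technical libraries, so a rate of 1 in 20 for independent values need not hold here. Knockdown library 3_2, where PES1 and POLR1B stood apart, is among those that deviated most with GC content. Whether GC content played a part was not tested. PES1 was lowest in knockdown library 3_2 at 119 CPM, with the other knockdown libraries at 131 to 141 CPM. POLR1B was highest in the same library at 109 CPM, with the others at 99.3 to 103 CPM. PPAN was highest in knockdown library 1_2 at 6.62 CPM, with the others at 5.21 to 5.87 CPM. WDR74 was highest in scrambled library 2_1 at 88.7 CPM, with the others at 79.4 to 83.9 CPM.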

How the results depend on the processing

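In all 14 alternatives 0 members were called higher and the members' median stayed negative, from -0.073 to -0.061. Lower members numbered 32 with GC correction, 31 with GC correction and the replicate block, 29 without knockdown libraries 3_2 and 3_3, and 4 to 27 with 1 replicate left out (4 without scrambled replicate 2, 8 without scrambled replicate 1, 27 without knockdown replicate 3). With the replicate block alone there were 23 lower members and 1772 lower genes in all. Deviations of same-numbered samples correlated at 0.030, 0.011 and 0.011, so the numbers were not taken to pair the samples, and not every sample correlated best with its own number.

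Over all genes 2669 were lower and 2389 higher with GC correction, 2669 and 2372 with the block added, and 2426 and 2589 without those libraries, beside 1175 and 1745. With 1 replicate left out lower genes numbered 623 to 2280 and higher genes 1127 to 2482. PCMTD1 stayed lower in all 14.

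Signs turned only among members that were not called. FBL was at -0.00018 in DESeq2 and with GC correction, -0.00012 with the block added, and -0.016 to 0.034 with 1 replicate left out. NOP10 was at 0.010 without those libraries, 0.004 with either GC fit, 0.030 with the first technical library alone and -0.034 to 0.019 with a replicate left out. BOP1 was at 0.020 without those libraries and 0.034 with the first library alone, PPAN at 0.034 and BYSL at 0.014 there, and NOB1 at 0.008 without those libraries. With a replicate left out BOP1 ran from -0.058 to 0.014, PES1 from -0.005 to 0.041, PPAN from -0.067 to 0.027, HEATR1 from -0.048 to 0.012, NOB1 from -0.036 to 0.017 and PNO1 from -0.069 to 0.003. Of the called members, 9 missed the threshold without scrambled replicate 2, 5 without scrambled replicate 1 and 4 without scrambled replicate 3. Without knockdown replicate 2 there were 5 that missed it, and without knockdown replicate 1 there were 3. Without a count filter 1 missed it, and with the first technical library alone 3. The causes were not tested. In the simulated counts fewer than 1 in 3 genes at 0.909-fold were called (31.6%). Those genes were drawn at random from all genes tested, at any abundance, so the share is not that of the members. How often a change of this size would be missed among the members was not tested, and a missing call does not show an unchanged level.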
